A study of Homo sapiens with 12 samples.

Results

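The baseline transcriptome of untransfected IGROV-1 cells was described from the 3 Parental arrays (replicates 1 to 3) of a set of 12 Affymetrix Human Genome U133 Plus 2.0 arrays. IGROV-1 is an established human ovarian cancer cell line. The 3 arrays were chosen by their titles, which name the untransfected line, and not by any measured value. The series was built around CXCR4, a chemokine receptor that binds CXCL12, and its lasting knockdown in this line. Its 4 groups hold 3 arrays each. The Parental cells received no plasmid and no drug. Mock cells carried a plasmid with a scrambled short hairpin RNA (shRNA) and were a pool of clones. The shCXCR4_I and shCXCR4_II cells carried different shRNAs against CXCR4, and each line was an individual clone. Mock, shCXCR4_I and shCXCR4_II cells received their plasmid by lipid transfection and grew in 4 µg/ml puromycin for 30 days. Plasmid, drug selection and clonal origin therefore cannot be told apart wherever Parental cells were set against them. All 4 groups were of the same line and medium. The labels do not say whether the 3 arrays of a group came from separate cultures, so a p-value here covers array-to-array spread alone, and that spread may be technical.

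Epithelial ovarian cancers are thought to arise from Müllerian-type epithelium, such as that of the fallopian tube, or from the ovarian surface. The transcription factors PAX8 and SOX17 mark that lineage, and folate receptor alpha, mesothelin and the mucin CA-125 are surface proteins by which these tumours are recognised. Carcinoma cell lines grown on plastic keep keratins and cell junctions, often beside mesenchymal genes such as vimentin, and they express the genes of growth, energy and division that culture demands.

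Each gene was given the probe set with the highest mean on the 3 Parental arrays, which gave 19775 genes. A probe set is a group of short probes for a transcript. The values are log2 signals, so a difference of 1 is a 2-fold difference. Probe sets bind with different strength, and the ranking is therefore an order of signal and not of transcript numbers. Gene means ran from 1.54 to 13.34, with a median of 5.33. The upper 25% of genes, down to 7.48, are called high. The lower 25%, from 3.69 downwards, are called low, and the genes between are called middle. At the upper border MYSM1 (7.4771) was the last high gene and TMEM223 (7.4770) the first middle gene. At the lower border lay SNHG28 (3.6860, middle) and TSSK6 (3.6855, low).

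The ranking held from array to array. The median SD of a gene over the 3 arrays was 0.072 on the log2 scale, and 95% of genes had an SD of at most 0.197. Of 4944 high genes, 4828 (97.7%) fell in the high class on every array taken separately. The same was true of 9440 of 9887 middle genes (95.5%) and 4623 of 4944 low genes (93.5%). Low genes also varied most, with a median SD of 0.098, against 0.082 in the middle class and 0.042 in the high class. The array medians over all probe sets were 4.30 to 4.32 in Parental cells and 4.25 to 4.39 on the other 9 arrays. The difference between the 3′ and 5′ control probe sets, a sign of RNA degradation, was 0.03 to 0.07 for GAPDH in Parental cells and 0.02 to 0.10 on the others. For ACTB it was 0.42 to 0.51 in Parental cells and 0.36 to 0.60 on the others.

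A value above the bottom of the scale does not by itself show expression. Olfactory receptor genes, which an epithelial line is not expected to use, gave a description of that floor. The 82 that were measured ran from 1.66 to 5.78, with 0 in the high class, 40 in the middle and 42 in the low class. The highest of them was OR1I1. A total of 8793 genes (44.5%) lay above all 82. Middle values up to 5.78 were thus also reached by genes of that family, and they are given below as levels and not as expression.

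The choice of probe set bears on many levels below. Probe sets whose names end in _x_at or _s_at can bind transcripts of related genes or several transcripts, and are called cross-binding here. Of 217 named genes of the high class, 119 rest on such a probe set, and 64 of these have no other. A further 33 leave the high class when only the other probe sets are used. The values of some of them are then 2.08 for LGALS3, 2.73 for IGF2BP3, 2.88 for LGR4, 3.14 for NR3C1 and for B2M, 3.47 for IDI1, 4.02 for FGFR2 and 4.08 for FAS. They are 4.55 for PERP, 4.76 for HMGA2, 4.79 for SC5D and for ATP5F1A, 4.99 for ENO1, 5.15 for CTNNA1, 5.21 for HOXB6, 5.44 for GSTM3, 6.03 for KRT7 and 6.25 for ELF3. Which probe set measures the gene better was not tested.

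**Figure D1:**
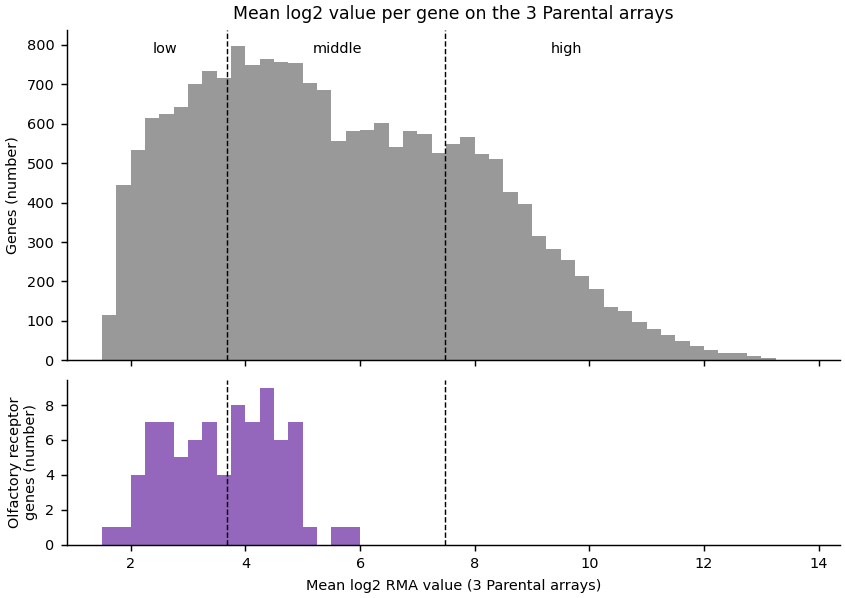
Number of genes by mean log2 value on the 3 Parental arrays, for all 19775 genes (grey, above) and for 82 olfactory receptor genes (purple, below). Dashed lines mark the borders at 3.69 and 7.48. The olfactory receptor genes end at 5.78, below the upper border.

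At the top of the ranking stood genes of protein synthesis and energy supply. RPL41, a ribosomal protein, was first with 13.34 on Parental array 1, 13.34 on array 2 and 13.35 on array 3. EEF1A1, which brings transfer RNAs to the ribosome, came next at 13.12 ± 0.01 (mean ± SD, n = 3 arrays here and for every mean below). Of the 100 highest genes 41 were ribosomal proteins, of 59 measured. The glycolytic enzyme GAPDH stood in place 5 at 13.05 ± 0.01, and 4 mitochondrially encoded subunits of the respiratory chain and ATP synthase, COX2, COX1, ATP6 and ND4, lay between 12.95 and 13.05. The fourth place belonged to FTH1P5, a pseudogene of ferritin heavy chain whose probe set is of a type (_x_at) that also binds related transcripts, so its signal cannot be assigned to it. Cytoskeletal ACTB (12.98 ± 0.02) and the actin-binding peptide TMSB10 (12.98 ± 0.01) followed, with TPT1, the calcium-dependent membrane binder ANXA2, ferritin light chain FTL, the mitochondrial chaperone HSPD1, the prolyl isomerase PPIA and ubiquitin UBB between 12.72 and 12.81. Some of these top genes leave the high class without cross-binding probe sets. ANXA2 then stood at 3.60, PPIA at 4.21, HSPD1 at 5.83, ATP6 at 6.73 and EEF1A1 at 7.45.

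Müllerian lineage factors spanned the ranking, and most of them were middle. MECOM, a zinc finger factor often gained in ovarian cancer, had 10.26, 10.19 and 10.24 on Parental arrays 1, 2 and 3. PAX8 had 10.18, 10.23 and 10.21, and SOX17 had 9.52, 9.49 and 9.50. All 3 genes stood among the upper 6.66% of genes on their mean. ARID1A, a chromatin remodelling subunit, was also high, at 8.27 ± 0.05. GATA6 (7.03 ± 0.03) and WT1, a marker of serous tumours (6.27 ± 0.13), were middle. MEIS1 (2.64 ± 0.27) and EMX2, a homeobox factor of the developing reproductive tract (2.07 ± 0.03), were the lowest members. Of 23 measured factors 4 were high, 12 middle and 7 low, and their median of 4.82 lay below the 5.33 of all genes.

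The promoters of the highest and the lowest of these factors are shown because the genes lie far apart in the ranking while their promoters hold similar numbers of CG dinucleotides. PAX8 was added after its value was seen. Each line gives 250 bases before and 50 bases after the listed start, 5′ to 3′, from RefSeq on GRCh38.p14, with CG in capitals. MECOM is at chr3:169663663-169663962 (minus strand, the first of 3 listed promoters), EMX2 at chr10:117542496-117542795 (plus strand) and PAX8 at chr2:113278872-113279171 (minus strand).
MECOM: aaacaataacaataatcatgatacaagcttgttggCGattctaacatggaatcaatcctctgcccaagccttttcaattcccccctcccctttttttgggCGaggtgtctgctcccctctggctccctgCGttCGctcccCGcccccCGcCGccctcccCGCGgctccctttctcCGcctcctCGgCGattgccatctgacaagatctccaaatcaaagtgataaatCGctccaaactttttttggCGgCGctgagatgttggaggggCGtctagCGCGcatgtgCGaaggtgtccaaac
EMX2: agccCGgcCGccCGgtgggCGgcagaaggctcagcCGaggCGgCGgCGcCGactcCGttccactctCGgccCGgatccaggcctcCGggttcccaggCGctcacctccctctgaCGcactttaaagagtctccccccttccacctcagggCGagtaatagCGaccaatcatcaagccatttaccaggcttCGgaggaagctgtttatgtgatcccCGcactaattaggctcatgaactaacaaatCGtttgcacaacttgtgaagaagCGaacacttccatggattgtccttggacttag
PAX8: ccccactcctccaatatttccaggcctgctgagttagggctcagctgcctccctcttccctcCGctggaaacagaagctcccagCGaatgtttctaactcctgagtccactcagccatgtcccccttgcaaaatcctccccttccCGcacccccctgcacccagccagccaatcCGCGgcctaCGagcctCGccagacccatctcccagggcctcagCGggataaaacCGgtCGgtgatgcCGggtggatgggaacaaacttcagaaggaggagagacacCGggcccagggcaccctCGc
The MECOM promoter held 19 CG dinucleotides, the EMX2 promoter 21 and the PAX8 promoter 13, all below the median of 23 over the genes with 1 listed promoter. None of the 3 contained TATAAA or TATATA on either strand.

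Over the whole ranking promoter composition moved with signal level. Among 11468 genes with a promoter listed once in RefSeq, the median number of CG dinucleotides was 28 in the high class, 23 in the middle class and 8 in the low class. The quartiles were 22 and 35 in the high class, 10 and 33 in the middle class, and 3 and 23 in the low class. The letters TATAAA or TATATA, searched on both strands and with overlapping matches counted once per promoter, were present in 5.89% of high (exact 95% interval 5.07 to 6.79), 9.55% of middle (8.78 to 10.4) and 19.6% of low promoters (18.2 to 21). The share was 11.2% over all 11468 of these genes, whose median CG count was 23. It was 13.7% over all 35116 listed promoters, whose median CG count was 14. The highest 10% of the ranking had a share of 7.71%, and the next 10% had 4.85%. Low genes were also more often long noncoding RNAs: these made up 31.4% of low, 1087 of 9887 middle and 0.567% of high genes, so that promoter composition and gene type changed together. The 28 long noncoding RNAs of the high class were led by MALAT1 (10.91 ± 0.06), NORAD (10.80 ± 0.05), ZFAS1 (10.79 ± 0.03) and DANCR (10.28 ± 0.02). These are descriptions of the ranking, without a test.

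**Figure D2:**
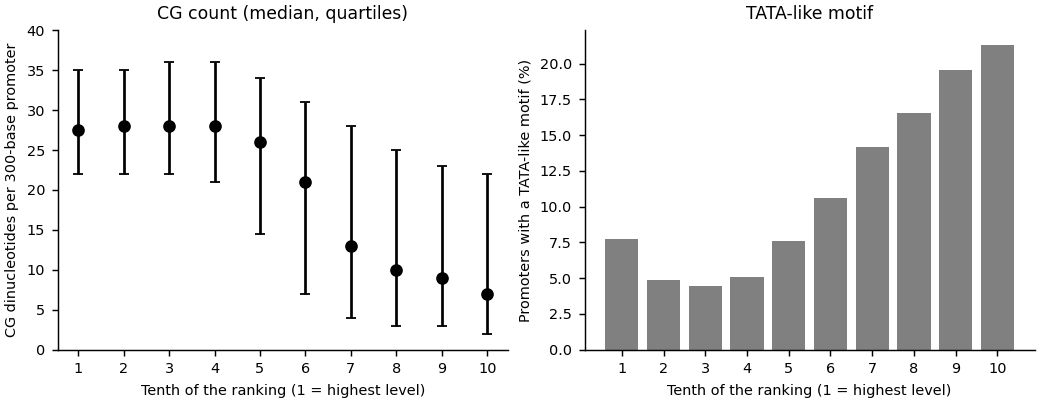
CG dinucleotides per promoter (median with quartiles, left) and percent of promoters with a TATA-like motif (right) for 10 equal steps of the ranking, where 1 is the highest signal. The median CG count was 27.5 in step 1 and 7 in step 10, and the motif share was 7.71% and 21.3%.

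Ovarian cancer antigens were present in part. CD24, a mucin-like adhesion protein, had 12.15, 12.16 and 12.22 on Parental arrays 1 to 3, and SPP1 (osteopontin) lay between 11.99 and 12.02. FOLR1, folate receptor alpha, had 11.68, 11.73 and 11.63. CLDN3 (10.38 ± 0.05), the protease inhibitor SLPI (10.06 ± 0.04), L1CAM (8.63 ± 0.06) and MUC1 (8.47 ± 0.07) were high as well. Other antigens of the same tumours were not. WFDC2, which encodes HE4, stood at 5.36 ± 0.16, and MSLN, mesothelin, at 5.26 ± 0.10, both within the range of the olfactory receptor genes. MUC16, which encodes CA-125, was low, with 3.04, 3.57 and 3.12. Of 28 measured markers 8 were high, 18 middle and 2 low, with a median of 5.26.

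**Figure D3:**
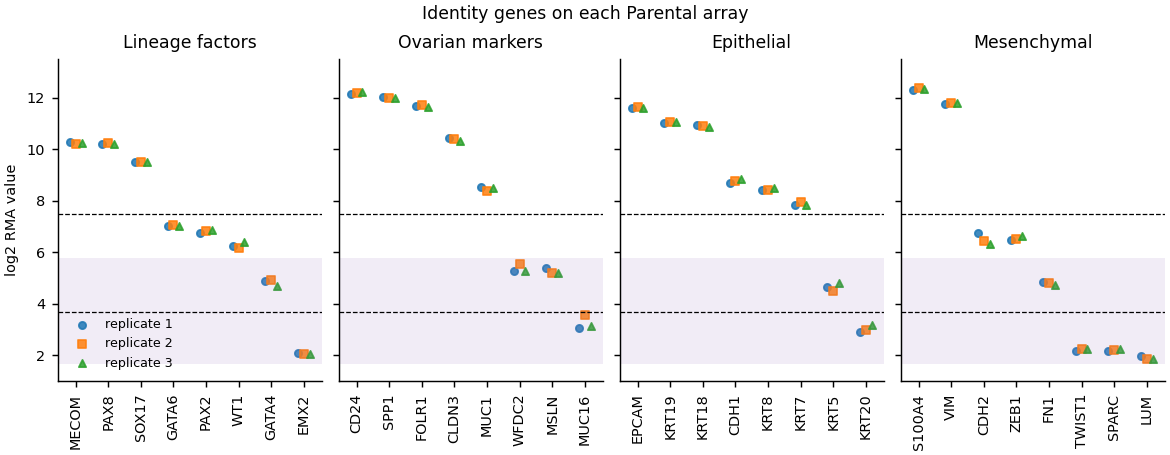
Log2 values of lineage, antigen, keratin and mesenchymal genes on the 3 Parental arrays (points are arrays). The purple band is the range of 82 olfactory receptor genes and dashed lines are the class borders. PAX8, SOX17, FOLR1 and EPCAM lie far above the band, whereas WFDC2, MUC16 and EMX2 lie inside it.

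Few steroid and nuclear receptors gave a strong signal. NR2F6 (8.89 ± 0.05) and NR3C1, the glucocorticoid receptor (7.91 ± 0.03, but 3.14 without cross-binding probe sets), were the 2 high members of 23 measured. RXRA followed at 7.15 ± 0.09. ESR1, estrogen receptor alpha, had 5.39, 5.31 and 5.23 on the 3 arrays, and without cross-binding probe sets it had 3.66. PGR, the progesterone receptor, was low, with 3.40, 3.17 and 3.36. In the list 16 members were middle and 5 low, and the median was 5.31.

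The HOX genes, which set position along the body axis, were led by the HOXB cluster. HOXB7 (8.96 ± 0.02), HOXB2 (8.96 ± 0.04), HOXB6 (8.82 ± 0.04), HOXB3 (8.55 ± 0.04) and HOXB4 (7.71 ± 0.08) were the 5 high members of 28 measured. The lowest were HOXD11 (2.59 ± 0.12) and HOXD12 (2.24 ± 0.10). HOXB7 and HOXB6 rest on cross-binding probe sets. HOXB7 has no other, and HOXB6 stood at 5.21 without it. Among oncofetal genes the RNA-binding protein IGF2BP3 (10.71 ± 0.03, but 2.73 without cross-binding probe sets), MYC (10.39 ± 0.06), HMGA2 (9.14 ± 0.08, but 4.76 without them) and IGF2BP2 (8.88 ± 0.09) were high, PRAME, a tumour antigen, was middle (6.94 ± 0.10), and LIN28B, which blocks let-7 maturation, was low (2.02 ± 0.14). Of that list 4 members were high, 8 middle and 9 low.

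Keratins of simple epithelium headed their family. KRT19 had 11.01, 11.07 and 11.05, KRT18 had 10.93, 10.89 and 10.87, and KRT8, the partner of KRT18, had 8.43, 8.40 and 8.48. KRT7 (7.88 ± 0.07), KRT10 (9.53 ± 0.08) and KRT80 (9.01 ± 0.03) completed the 6 high members of 13 measured. Of these, KRT18, KRT10 and KRT8 have only cross-binding probe sets, and KRT7 was middle at 6.03 without them. KRT19 and KRT80 do not rest on such probe sets. KRT5, of basal layers, was middle at 4.66 ± 0.16, and KRT20, of intestinal epithelium, was low at 3.01 ± 0.15. EPCAM, an epithelial adhesion protein, had 11.62, 11.66 and 11.61. It headed the junction genes, 17 of 30 of which were high, with a median of 7.78. PERP (11.21 ± 0.04, but 4.55 without cross-binding probe sets) and DSG2 (10.85 ± 0.05) of desmosomes, the catenins CTNNB1 and CTNNA1 (10.62 ± 0.07) and the tight junction protein CLDN1 (10.49 ± 0.07) followed. CDH1, E-cadherin, was high at 8.76 ± 0.07, while CDH2, N-cadherin, was middle at 6.48 ± 0.22.

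In a mixed list of 23 epithelial and mesenchymal transcription factors 5 were high, 11 middle and 7 low. EHF (9.62 ± 0.10), TFAP2A (9.27 ± 0.01), KLF5 (9.27 ± 0.04) and ELF3 (8.14 ± 0.04) were high, as was FOXM1, a driver of mitotic genes (7.76 ± 0.05). TWIST1 (2.21 ± 0.04) and SNAI2 (2.22 ± 0.07), which drive epithelial to mesenchymal transition, were the lowest. TWIST2 (3.11 ± 0.02) and ZEB2 (2.78 ± 0.05) were low too, and SNAI1 was middle (4.62 ± 0.08). Other members went the other way. ZEB1, of the mesenchymal side, was middle at 6.53 ± 0.07, above all olfactory receptor genes. The epithelial regulators GRHL2 (2.62 ± 0.03) and ESRP1 (3.53 ± 0.12) were low. Vimentin, an intermediate filament of mesenchymal cells, was among the highest genes, with 11.77, 11.80 and 11.81 for VIM. S100A4, a calcium-binding protein of motile cells, had 12.31, 12.37 and 12.35. Of 35 matrix and mesenchymal genes 12 were high, 17 middle and 6 low, with a median of 5.34.

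Beside VIM and S100A4, the other 10 high genes of that list encode basement membrane components. The 7 among them that are not described below are COL4A1, COL4A5, COL18A1, AGRN, LAMA5, LAMB1 and LAMB3, named after their values were seen. Without cross-binding probe sets COL4A5 stood at 2.90 and AGRN at 4.996, and COL18A1 and LAMA5 have no other. Further basement membrane genes of the list, also named then, were not high. HSPG2 (6.98 ± 0.05), LAMB2 (6.55 ± 0.04), LAMA4 (5.32 ± 0.07), NID1 (4.70 ± 0.05) and COL4A6 (3.97 ± 0.08) were middle, and LAMA1 (2.94 ± 0.10) was low. COL4A2 had 11.09, 11.12 and 11.18, LAMC1 (laminin gamma 1) had 10.95, 11.10 and 11.14, and NID2 (nidogen 2) averaged 10.99 ± 0.01. Stromal SPARC was low, as were POSTN (2.39 ± 0.22) and LUM (1.90 ± 0.07). Integrins, which bind matrix or other cells, were led by ITGB1 (11.42 ± 0.01), ITGA2 (9.99 ± 0.03), ITGB8 (9.43 ± 0.08), ITGAV (9.17 ± 0.08) and ITGAE (8.60 ± 0.03). Of 24 integrins 9 were high and 3 low, and the leukocyte integrins ITGAL (3.25 ± 0.15) and ITGA4 (3.27 ± 0.06) were the lowest. Immunoglobulin-type adhesion molecules were led by ICAM2 (10.85 ± 0.02), ALCAM (10.33 ± 0.06), the neural cell adhesion genes NRCAM (8.72 ± 0.02) and NCAM1 (8.67 ± 0.04), and L1CAM. The hyaluronan receptor CD44 was high (9.69 ± 0.04), while VCAM1 (2.23 ± 0.12) and CHL1 (1.81 ± 0.10) were low. The tetraspanins CD63 (11.28 ± 0.03), CD81 (10.81 ± 0.03) and CD9 (9.85 ± 0.08), which organise membrane proteins, were high. Their list, which also holds gap junction genes, had 10 of 21 high.

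Among receptor tyrosine kinases MET, the receptor for hepatocyte growth factor, stood alone at the top. It had 11.68, 11.72 and 11.70 on Parental arrays 1 to 3. EGFR followed at 8.44 ± 0.04, with RYK (8.31 ± 0.02), FGFR2 (8.26 ± 0.04) and FGFR1 (8.22 ± 0.08). ERBB2 (7.76 ± 0.05) and ERBB4 (7.59 ± 0.07) were high as well, near the border, and ERBB3 was middle (5.40 ± 0.09). IGF1R was middle at 3.82 ± 0.21, inside the olfactory receptor range, and ROR2 was low (2.09 ± 0.13). Of 44 kinases 9 were high, 29 middle and 6 low.

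CXCR4, the gene the series targets, was high, with 8.42, 8.28 and 8.30, and ranked 3078 of 19775. Its ligand CXCL12 was middle at 4.81 ± 0.09, inside the olfactory receptor range. The orphan receptor GPRC5A (11.15 ± 0.01), the R-spondin receptor LGR4 (9.82 ± 0.09, but 2.88 without cross-binding probe sets), the Wnt receptor FZD6 (9.54 ± 0.03) and ADGRG1 (8.39 ± 0.03) ranked above CXCR4 in its list of 45 G protein-coupled receptors. In that list 10 members were high, 22 middle and 13 low, with LPAR4 (1.69 ± 0.08) last. Cytokine, TNF and TGF-beta family receptors had a higher median, 7.12, and 15 of 41 were high. They were led by the death receptor FAS (9.53 ± 0.07, but 4.08 without cross-binding probe sets), TNFRSF12A (9.47 ± 0.07) and TGFBR2 (9.42 ± 0.11). The transferrin receptor TFRC (11.97 ± 0.03) headed the Notch, lipoprotein and scavenger receptors, and NOTCH2 was high at 8.72 ± 0.02.

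Genes of immune recognition were well represented. B2M, the light chain of class I antigens, had 11.76, 11.79 and 11.78, and HLA-C had 10.83, 10.81 and 10.84, although class I genes share sequence and their probe sets bind one another's transcripts. CD47, which inhibits phagocytosis, stood at 11.28 ± 0.01. The complement inhibitors CD46 (10.58 ± 0.04) and CD59 (9.76 ± 0.03) were high. The class II gene HLA-DPA1 was middle at 3.91 ± 0.15 and the NKG2D ligand ULBP1 low at 3.11 ± 0.15. In all, 12 of 31 members were high and 1 was low.

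Secreted signals were mostly of middle or low level, with a few high members. FGF18 had 11.01, 11.09 and 11.11. HDGF (10.51 ± 0.02), the inhibin beta B chain INHBB (9.82 ± 0.05), GRN (9.22 ± 0.01) and KITLG, the ligand of KIT (8.98 ± 0.03), followed it among 10 high of 44 growth factors. VEGFA was high at 7.94 ± 0.09, and EGF low at 2.39 ± 0.04. Of 36 cytokines and chemokines only MIF (11.99 to 12.01) and IL18 (10.21 ± 0.07) were high. IL6 (4.81 ± 0.07) and CXCL8 (5.04 ± 0.05) were middle and CXCL11 low (1.88 ± 0.02). JAG1, a Notch ligand (10.17 ± 0.02), and FSTL1 (8.42 ± 0.01) were the 2 high members of 38 Wnt, Notch and hedgehog ligands and antagonists. CCN1 was high (10.08 ± 0.06) and CCN2, its relative, low (2.31 ± 0.04).

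Secreted proteases were led by MMP7, or matrilysin, an epithelial metalloprotease. It had 11.84, 11.83 and 11.78. Its family members MMP10 (3.01 ± 0.08) and MMP3 (2.08 ± 0.09) were low, and MMP1 was middle (4.95 ± 0.07). The inhibitors CSTB (11.34 ± 0.03) and TIMP1 (10.49 ± 0.02) and the sheddases ADAM9 (10.37 ± 0.04) and ADAM10 (10.14 ± 0.05) were high, among 17 of 49. Galectin 1, encoded by LGALS1, stood at 11.65 ± 0.01 and the chaperone-like CLU at 9.69 ± 0.01.

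Metabolic lists held some of the largest shares of high genes, set here against 25% over all genes. Oxidative phosphorylation had 37 of 40 members high (92.5%) and a median of 10.55. ATP5F1A of ATP synthase (12.38 ± 0.02) and cytochrome c, CYCS (11.85 ± 0.03), led it, and its 3 exceptions included the muscle isoforms COX6A2 (3.88 ± 0.15) and COX7A1 (3.57 ± 0.06). The list of citric acid cycle and related enzymes followed with 21 of 27 (77.8%), led by the NADP-dependent IDH1 (11.28 ± 0.05), a related enzyme. Glycolysis had 21 of 39 high (53.8%), with GAPDH, both lactate dehydrogenase chains LDHB (12.54 ± 0.03) and LDHA (12.26 ± 0.01), and ENO1 (12.02 ± 0.01) at the head. The glucose transporters of liver and of muscle and fat, SLC2A2 (1.86 ± 0.16) and SLC2A4 (2.72 ± 0.10), were low, as was PCK1 of gluconeogenesis (2.04 ± 0.03).

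PSAT1, an enzyme of serine synthesis, had 12.11, 12.07 and 12.05. With it the amino acid transporters SLC38A2 (11.50 ± 0.04) and SLC38A1 (11.28 ± 0.06), the polyamine enzyme ODC1 (11.48 ± 0.03) and thymidylate synthase TYMS (10.84 ± 0.03) headed 24 high of 35 genes of serine, one-carbon and glutamine metabolism. In cholesterol and fatty acid metabolism 24 of 37 were high, led by the lipid carrier FABP5 (11.02 ± 0.06) and by SQLE, an enzyme of sterol synthesis (10.23). Of 46 genes of glutathione, iron and oxidative stress 29 were high, with the peroxiredoxins PRDX1 (12.27 ± 0.01) and PRDX6 (11.77 ± 0.05), SOD1 (11.49 ± 0.02) and the glutathione transferase GSTM3 (11.34 ± 0.07). ALDH1A1, an aldehyde dehydrogenase used as a marker of stem-like tumour cells, had 10.91, 10.88 and 10.92. CYP24A1, which inactivates vitamin D, was low (1.91 ± 0.08).

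Among genes of drug response, the tubulins TUBB (11.81 ± 0.01) and TUBB3 (11.03 ± 0.02) and the vault protein MVP (9.22 ± 0.02) were high. ABCC4, an efflux pump, was high at 8.74 ± 0.05, but ABCB1, which encodes P-glycoprotein, was low with 3.33, 3.41 and 3.32. Of this list 11 of 27 were high. Cell cycle genes were high in 23 of 33 cases, with PCNA (11.22 ± 0.06), TOP2A (10.97 ± 0.01), CCNB1 (10.40 ± 0.02), CDK4 (10.40 ± 0.04), MKI67 (8.46 ± 0.10) and CCNE1 (8.33 ± 0.05). The inhibitor CDKN2B was low (2.64 ± 0.04). CDKN2A stood at 5.99 ± 0.10, and at 3.79 without cross-binding probe sets.

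**Figure D4:**
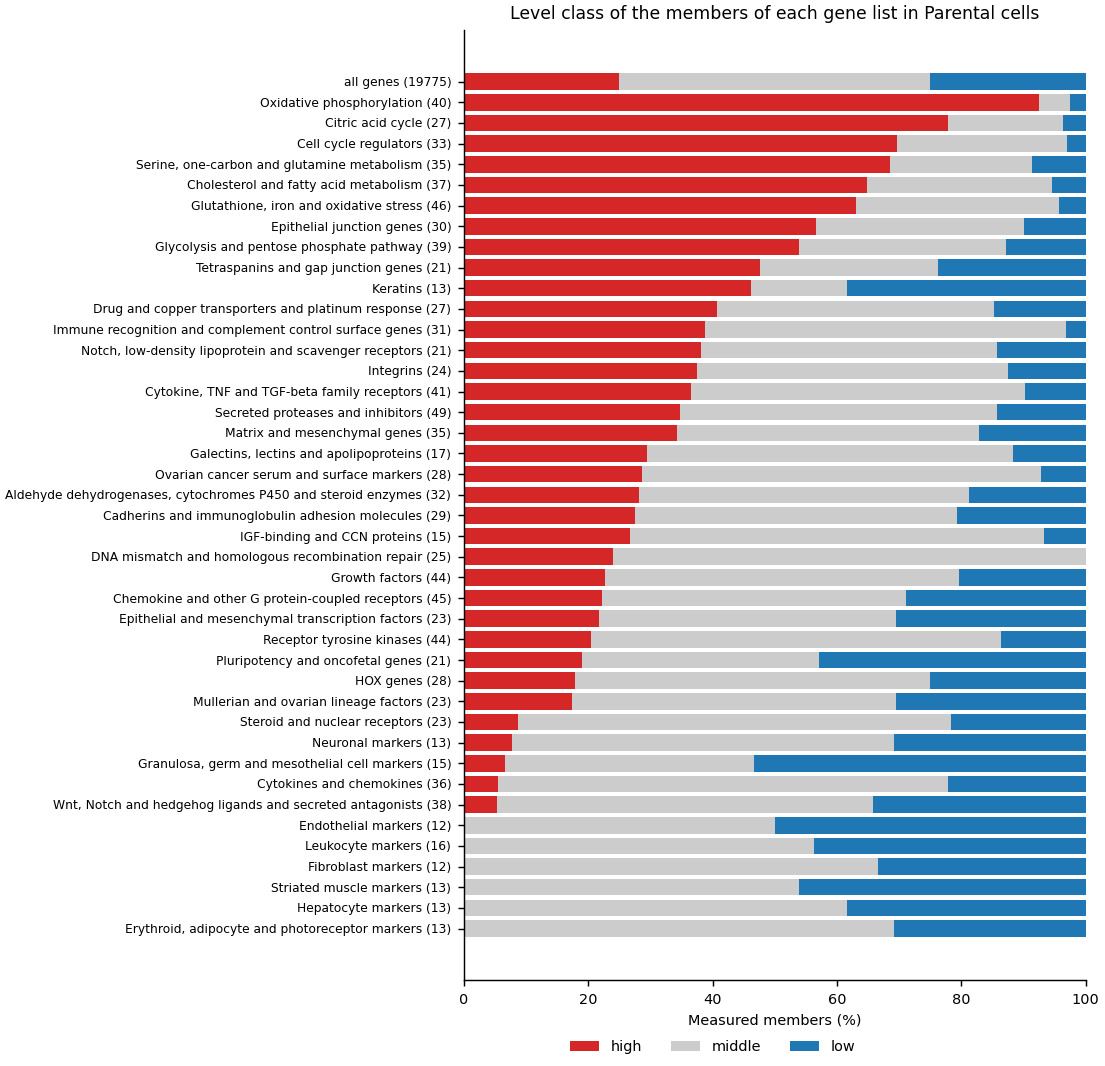
Percent of measured genes of each list in the high, middle and low class on the 3 Parental arrays, with all genes at the top for comparison. Oxidative phosphorylation reaches 92.5% high, and 6 of the 8 lists of other cell types have no high member.

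Markers of other cell types were described as well. They cannot check the Parental label, because all groups are of the same line. The lists for leukocytes (16 measured), endothelium (12), fibroblasts (12), striated muscle (13), hepatocytes (13) and a mixed list of erythroid, adipocyte and photoreceptor genes (13) had 0 high members each. Their medians ran from 3.75 to 4.42. Defining genes such as TYROBP (2.40 ± 0.13) and LYZ (2.38 ± 0.02) of myeloid cells, KDR (2.79 ± 0.19) and TIE1 (2.87 ± 0.15) of endothelium, and ALB of liver (2.69 ± 0.17) were low. Other members were middle and above all olfactory receptor genes, namely PECAM1 of endothelium (6.45 ± 0.14), COL1A1 of fibroblasts (6.70 ± 0.10), TNNT3 of muscle (6.41 ± 0.07) and TTR of liver (6.04 ± 0.04). The highest leukocyte genes, CD4 (5.70 ± 0.11) and CD3E (5.31 ± 0.16), lay inside the olfactory receptor range. Of 13 neuronal genes TUBB3 was high, and of 15 granulosa, germ and mesothelial genes LRRN4 was (7.62 ± 0.02), whereas FOXL2 of granulosa cells (4.32 ± 0.05) was middle and DAZL of germ cells (2.24 ± 0.05) low. PAX8, SOX17 and EPCAM, among the highest members of their lists, were high on the same arrays, while most lineage factors were middle or low.

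The Parental cells were next set against each transfected line, gene by gene. Each comparison took the probe set with the highest mean over all 12 arrays, so that its choice did not favour Parental cells, and used limma over all 19775 genes with Benjamini-Hochberg adjustment. At an adjusted p under 0.05, 2968 genes differed between Parental and Mock cells (15.0%), of which 1034 were higher (5.23%) and 1934 lower (9.78%) in Parental cells. Against shCXCR4_I cells 3325 genes passed (16.8%), 1693 higher (8.56%) and 1632 lower (8.25%). Against shCXCR4_II cells 3353 passed (17.0%), 1875 higher (9.48%) and 1478 lower (7.47%). The split depended on scaling: the share of calls higher in Parental cells against Mock was 34.8%, but 24.8% with arrays centred on their medians and 45.2% after quantile normalization, and against shCXCR4_II it was 55.9%, but 68.9% when centred. The count against shCXCR4_II was 2215 without Parental replicate 2. Each array measured bulk RNA, so fewer cells expressing a gene and less RNA per cell cannot be told apart.

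In all 3 comparisons 371 genes were higher (1.88% of genes tested) and 385 lower (1.95%) in Parental cells. The comparisons share the Parental arrays, so a deviation of those arrays enters all 3. Differences reached 2-fold in all 3 for 25 of the higher and 8 of the lower genes. Without Parental replicate 2 the lower genes numbered 236, and without replicate 3 they numbered 228. Of the 371 higher genes 208 were of high, 150 of middle and 13 of low level in Parental cells. Of the 385 lower genes 146 were of high, 233 of middle and 6 of low level.

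PDGFC, a ligand of platelet-derived growth factor receptors, had 8.58, 8.60 and 8.74 in Parental cells, against 6.37, 6.27 and 6.37 in Mock, 5.80, 5.66 and 5.84 in shCXCR4_I and 4.81, 4.86 and 4.80 in shCXCR4_II cells. The log2 differences were 2.31, 2.88 and 3.82 (SE 0.07 each, limma adjusted p = 9.99e-11, 1.39e-11 and 4.30e-13). KIT, the receptor tyrosine kinase for KITLG, had 6.68, 6.31 and 6.63 in Parental cells, against 3.76, 3.33 and 3.63 in Mock, 4.43, 4.46 and 4.33 in shCXCR4_I and 4.30, 4.41 and 4.45 in shCXCR4_II cells. No Parental array overlapped any other array for either gene, as the rule that picked the leading genes required. All 9 other arrays of KIT, and the shCXCR4_II arrays and 1 shCXCR4_I array of PDGFC, lay inside the olfactory receptor range, so these differences are not exact sizes of a change. By limma the KIT differences were 2.97, 2.13 and 2.15, each with an SE of 0.11 (adjusted p = 1.22e-09, 2.33e-08 and 1.90e-08). EPHA4, an ephrin receptor, averaged 7.95 ± 0.04 in Parental cells, against 6.24 ± 0.04 in Mock, 6.13 ± 0.07 in shCXCR4_I and 6.39 ± 0.11 in shCXCR4_II cells. The other leading genes were PNMA2, MGAT4C, DPYSL2 (a cytoskeletal phosphoprotein of axon growth), KLHL5, MAL (a protein of apical sorting), LRATD1 and ADGRL2, with smallest differences of 1.48 to 1.92. Without cross-binding probe sets neither LRATD1 nor ADGRL2 passed in any comparison. LRATD1 then changed sign against shCXCR4_II, and ADGRL2 against both clones.

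SHISA3, an antagonist of Wnt and FGF receptors, led the genes that were lower in Parental cells. It had 7.14, 7.02 and 6.88 in Parental cells, against 10.89, 10.92 and 10.86 in Mock, 8.70, 8.68 and 8.62 in shCXCR4_I and 8.79, 9.09 and 8.98 in shCXCR4_II cells. The log2 differences were -3.88, -1.66 and -1.94 (SE 0.08 each, limma adjusted p = 7.26e-12, 1.38e-08 and 2.46e-09). FOS, an immediate early factor, had 5.19, 5.28 and 5.37 in Parental cells, against 6.67, 6.69 and 6.79 in Mock, 7.49, 7.70 and 7.72 in shCXCR4_I and 6.35, 6.42 and 6.65 in shCXCR4_II cells. The Parental arrays lay below all 9 others for both genes, as the same rule required. By limma the FOS differences were -1.44, -2.36 and -1.20, each with an SE of 0.09 (adjusted p = 1.24e-07, 8.23e-10 and 6.48e-07). The Parental arrays of FOS lay inside the olfactory receptor range, so these differences are not exact sizes of a change. The creatine transporter SLC6A8, the growth factor carrier FGFBP1, CYP1A1 (a target of the aryl hydrocarbon receptor), SEMA4A, SFTA2 and the antisense RNA VAC14-AS1 followed, with smallest differences of 1.01 to 1.49 in size. POU5F1B and POU5F1P3 were lower too, but they are near-identical copies of POU5F1 read by cross-binding probe sets and cannot be told apart.

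**Figure D5:**
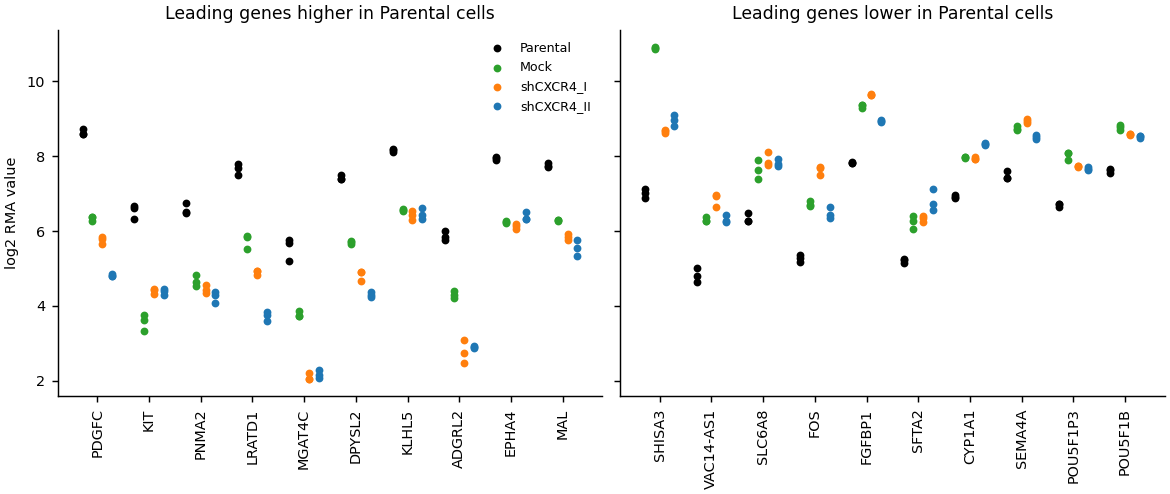
Log2 values of the 10 genes most clearly higher and the 10 most clearly lower in Parental cells than in all 3 other groups. Points are arrays in the order Parental, Mock, shCXCR4_I and shCXCR4_II. For each gene shown the Parental arrays lie beyond the other 9, as the rule that picked these genes required.

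CXCR4 itself did not pass against Mock cells. It had 8.42, 8.28 and 8.30 in Parental cells, against 8.51, 8.60 and 8.64 in Mock, 7.06, 7.10 and 7.11 in shCXCR4_I and 6.39, 6.73 and 6.75 in shCXCR4_II cells. The Parental excess was 1.24 over shCXCR4_I and 1.71 over shCXCR4_II (SE 0.09 each, limma adjusted p = 4.24e-07 and 1.61e-08), while against Mock the difference was -0.25 (adjusted p = 0.0699).

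Among 23 lineage factors 6 were lower than in Mock cells by limma (26.1%, against 9.78% of all genes) and 2 were higher (8.70%, against 5.23%). Against shCXCR4_I cells 4 were higher (17.4%, against 8.56%) and 0 lower, and against shCXCR4_II cells 2 were higher (8.70%, against 9.48%) and 0 lower. Of 13 keratins 4 were lower than in Mock cells (30.8%, against 9.78%) and 1 was higher (7.69%, against 5.23%). Against shCXCR4_I cells 5 keratins were lower (38.5%, against 8.25%) and 0 higher, and against shCXCR4_II cells 0 were lower and 0 higher. No lineage factor or keratin passed in all 3 comparisons, but at 3.82% of all genes lists of this size are too short to read anything from that. Of 28 HOX genes 3 were higher in all 3 (10.7%, against 1.88% of all genes), namely HOXB2, HOXB3 and HOXB5. HOXB2 averaged 8.96 ± 0.04 in Parental cells, against 8.39 ± 0.09 in Mock, 8.52 ± 0.05 in shCXCR4_I and 8.19 ± 0.03 in shCXCR4_II cells. The HOXB5 call ended when arrays were centred, and HOXB3 changed sign with the mean of its probe sets.

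Of 37 genes of cholesterol and fatty acid metabolism 7 were higher in Parental cells in all 3 comparisons (18.9%, against 1.88% of all genes) and 0 were lower. They were INSIG1, which restrains the sterol-sensing machinery, the synthesis enzymes HMGCS1, IDI1, LSS, SC5D and DHCR7, and the desaturase SCD5. INSIG1 had 9.36, 9.45 and 9.39 in Parental cells, against 8.37, 8.34 and 8.31 in Mock, 8.23, 8.15 and 8.11 in shCXCR4_I and 7.86, 8.21 and 8.21 in shCXCR4_II cells. No array of another group reached the Parental values. HMGCS1 averaged 7.94 ± 0.27 in Parental cells, against 6.95 ± 0.30 in Mock, 6.83 ± 0.20 in shCXCR4_I and 6.84 ± 0.27 in shCXCR4_II cells. HMGCS1 and SCD5 also varied more among the Parental arrays than most genes (SD 0.27 and 0.30), with array 1 lowest for HMGCS1 and array 2 lowest for SCD5. Without cross-binding probe sets 4 of 31 genes passed, and IDI1 changed sign.

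Redox and metal genes showed a similar count. Of 46 genes of glutathione, iron and oxidative stress 8 were higher in all 3 comparisons (17.4%, against 1.88% of all genes) and 1, GSTM3, was lower (2.17%, against 1.95%). The higher ones were GCLM (a subunit of the enzyme that limits glutathione synthesis), GSR, SOD3, HMOX1 (heme oxygenase), AKR1C3 and the metallothioneins MT2A, MT1X and MT1F, which bind zinc and copper. Metallothioneins and AKR1C genes are near-identical families, so their members are uncertain. MT1X averaged 8.31 ± 0.01 in Parental cells, against 7.72 ± 0.09 in Mock, 6.86 ± 0.07 in shCXCR4_I and 7.45 ± 0.07 in shCXCR4_II cells. The GSR call ended under both scalings, and 4 of 34 genes were higher without cross-binding probe sets. ALDH1A1 had 10.91, 10.88 and 10.92 in Parental cells, against 9.58, 9.65 and 9.58 in Mock, 8.87, 9.02 and 9.09 in shCXCR4_I and 8.73, 8.68 and 8.84 in shCXCR4_II cells. All 3 Parental arrays of ALDH1A1 lay above the rest, by 1.30, 1.91 and 2.15 on average (SE 0.07 each, limma adjusted p = 3.56e-08, 6.17e-10 and 1.84e-10), whereas ALDH1A3, of the same family, was lower in Parental cells by -0.59, -2.04 and -1.98.

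Adhesion genes differed in both directions. CDH1 averaged 8.76 ± 0.07 in Parental cells, against 7.90 ± 0.08 in Mock, 8.18 ± 0.08 in shCXCR4_I and 7.21 ± 0.06 in shCXCR4_II cells, and CDH2 was higher in Parental cells as well, by 1.00, 1.19 and 1.21. The CDH2 means of the other groups lay inside the olfactory receptor range, so its differences are not exact sizes of a change. The integrin ITGB8 exceeded Mock by 2.18, shCXCR4_I by 0.72 and shCXCR4_II by 1.14, while ITGA2 was lower by -0.37, -0.62 and -0.35. GJA1, the gap junction protein connexin 43, had 8.10, 8.14 and 8.09 in Parental and 7.24, 7.33 and 7.08 in Mock cells, but 2.81, 3.03 and 2.99 in shCXCR4_I and 3.09, 3.30 and 3.37 in shCXCR4_II cells. It was high in Parental cells and at the level of the olfactory receptor genes in both clones. CLDN1 was lower in Parental cells by -0.34, -0.53 and -0.49. NID2, of basement membrane, was higher by 0.59, 0.87 and 1.12.

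Receptors and secreted factors added 4 tyrosine kinases that were higher in all 3 comparisons, FGFR2, EPHA4, ERBB4 and KIT, of 44 measured (9.09%, against 1.88% of all genes), and 0 that were lower. Without cross-binding probe sets 2 of 36 were higher, and FGFR2 changed sign. Of 44 growth factors PDGFC, PDGFD, VEGFA and BMP6 were higher (9.09%, against 1.88%) and PDGFA and ADM lower (4.55%, against 1.95%). Without cross-binding probe sets 2 of 33 were higher and 0 lower. PDGFD averaged 6.89 ± 0.09 in Parental cells, against 6.45 ± 0.06 in Mock, 6.26 ± 0.09 in shCXCR4_I and 6.03 ± 0.09 in shCXCR4_II cells. PDGFA had the opposite direction, by -0.43, -0.54 and -0.24. Among proteases SERPINE2 (an inhibitor of thrombin), ADAMTS1, MMP1 and MMP10 were higher and the membrane serine protease ST14 lower. MMP1 and MMP10 lay inside the olfactory receptor range even in Parental cells, so their calls do not by themselves show a change of expression. LGALS3, galectin 3, was lower by -0.49, -2.63 and -1.80, and this changed sign without cross-binding probe sets. IL18 was higher by 0.98, 0.73 and 0.76, a call that ended without Parental replicate 2. The calls of VEGFA and PDGFA also ended without that replicate. Those of ADM, BMP6 and MMP1 ended without any 1 of the 3 Parental arrays. Of 1096 list genes measured 90 passed in the same direction in all 3 comparisons, against 3.82% of all genes. The lists were chosen with earlier results of these data known, so this and the other list counts do not test for an excess. All 90 had the same sign under both scalings and 73 kept the call there. Under every alternative run, 82 kept the sign and 48 the call.

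Cell cycle genes were higher in Parental cells for 3 of 33 members against Mock (9.09%, against 5.23% of all genes), 22 against shCXCR4_I (66.7%, against 8.56%) and 13 against shCXCR4_II cells (39.4%, against 9.48%). They were lower for 1, 0 and 1. CDKN1A, CCND3 and CCNE1 were higher in all 3, but each of these 3 calls ended under at least 2 of the alternatives run, among them leaving out 1 array. Of 39 glycolysis genes 0 were higher and 10 lower than in Mock cells (25.6%, against 9.78% of all genes), and PFKP and ENO2 were lower in all 3 (5.13%, against 1.95%). The PFKP call ended when arrays were centred and without Parental replicate 2 or 3, while ENO2 passed under each alternative run. In the list of citric acid cycle and related enzymes IDH1 and SUCLA2 were higher in all 3, SUCLA2 by 0.54, 0.51 and 0.62.

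Of all genes 15.0%, 16.8% and 17.0% passed against Mock, shCXCR4_I and shCXCR4_II cells. The leukocyte (16 measured) and hepatocyte (13) lists had 0 members past the test in any of the 3 comparisons. The endothelial list (12) had 1 higher in each (8.33%, against 5.23%, 8.56% and 9.48% of all genes), but not the same gene in all 3. The fibroblast list (12) had 1 lower than in shCXCR4_II cells (8.33%, against 7.47%). The muscle, neuronal and granulosa, germ and mesothelial lists and the mixed list also had members past the test in at least 1 comparison. No list of other cell types had a member that passed in the same direction in all 3, but these lists are too short to read anything from that.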

How the data were processed

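RNA of 12 samples of IGROV-1 lines was hybridised to Affymetrix Human Genome U133 Plus 2.0 arrays, 3 in each of 4 groups. The authors deposited log2 values for each probe set, from RMA run in R 2.6.0 per the submitters' processing notes. What chip definition, filters and batches applied is not given in the sources used here. No scanner files were compared with these values. No further normalization was applied, and the number of arrays limits the precision.

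Of 54675 probe sets, 41097 carry 1 gene symbol in the platform annotation, 1801 several and 11777 none, of which 62 are controls. By Entrez gene number 41043 matched RefSeq, and 0 symbols were updated. Single-symbol probe sets gave 19775 genes. Levels used the probe set highest on the Parental arrays, and comparisons that highest over 12 arrays, another one for 276 genes. Of 10523 genes with several, these spanned a median of 1.96 log2 units.

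Comparisons used limma 3.58.1 in R 4.3.3 on all 12 arrays (group means, 8 residual and 5.19 prior degrees of freedom), tested on simulated data. Figures used Python 3.11.15, pandas 2.3.3, numpy 2.4.6 and matplotlib 3.10.9. Promoters are RefSeq windows of 250 bases before and 50 after the start.

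The members, a panel of 42 genes and 41 lists of 1213 genes (1096 measured) were chosen with earlier results of these data known. Genes named are the panel, the 25 highest and the 10 highest outside ribosomal proteins and translation factors, the 5 highest and 2 lowest of each list, members past the test in all 3 comparisons, and the 10 genes with the largest smallest difference each way and no overlap of arrays, 409 in all. MYSM1, TMEM223, SNHG28, TSSK6, OR1I1, 7 basement membrane genes, the noncoding RNAs and the promoter of PAX8 were added after values were seen. Some further members of the transcription factor and matrix lists were added then too. Alternatives were other probe set rules, scalings, variance models, class borders, a filter, a replicate block and leaving out each array.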

Additional observations from a re-analysis of the deposited data

How the results depend on the processing

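Levels hardly depended on the array chosen. Of 409 named genes 0, 1 and 0 changed class without Parental replicate 1, 2 and 3, and 4860 to 4866 high genes kept their class on the arrays left. The probe set mattered more: 58 changed class when probe sets were averaged per gene and 64 of 314 without probe sets named _x_at or _s_at, and 37 with 3 classes of equal size. Leaving out an array gave 2079 to 3308 calls against Mock, 2418 to 3660 against shCXCR4_I and 2215 to 4033 against shCXCR4_II, and 281 to 413 genes higher and 228 to 401 lower in all 3. The lower genes numbered 241 without _x_at and _s_at probe sets, where 17100 genes were tested. There LRATD1 reversed against shCXCR4_II (-0.14, adjusted p = 0.436), as did ADGRL2 against shCXCR4_I (-0.0540, 0.769) and shCXCR4_II (-0.0853, 0.592), and the cause was not tested. Of 1230 recomputed differences of the 20 leading genes, 1224 kept direction and call. A further 3 lost the call, those of LRATD1 against Mock and shCXCR4_I and of ADGRL2 against Mock. Same-numbered arrays deviated together weakly (correlations of -0.109 to 0.148). With 3 arrays per group this cannot show whether same-numbered samples were handled together. With a replicate block 2771, 3116 and 3202 genes passed, and 345 were higher and 339 lower in all 3. Promoter motif shares stayed within their intervals. Signal limits the low end, since 44.5% of genes lay above all olfactory receptor genes.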

Other observations

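Among genes above all olfactory receptor genes, those that varied most between the 3 Parental arrays were listed after their values were seen. RNA45SN5, the precursor of ribosomal RNA, had 6.19, 6.67 and 7.04 on Parental arrays 1, 2 and 3 (SD 0.43). EGR1, an immediate early transcription factor, had 9.12, 9.52 and 9.65. IFIT2, an interferon-induced gene, had 6.19, 6.15 and 5.69. Array 1 was the lowest for RNA45SN5 and EGR1, and array 3 was the lowest for IFIT2.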
